A study of Caenorhabditis elegans with 8 samples.

Results

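The genes described here are 10 genes of Caenorhabditis elegans named for the outer layers of the eggshell and for egg activation: egg-1, egg-2, egg-3, egg-4, egg-5, egg-6, chs-1, cbd-1, mbk-2 and gna-2. They were chosen by symbol, and are 10 of the 20008 genes that the probes of the array could be assigned to. They were measured by 27 of the 43603 probes: 10 for mbk-2, 6 for egg-1, 3 for egg-6, 2 for egg-5 and 1 for each of the other genes.

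RNA was compared between wild-type worms of the strain N2 and worms with a knockout of seip-1, the gene for the worm's seipin, a protein of the endoplasmic reticulum that acts in lipid droplet formation. The labels give no allele or line for the knockout. Each genotype was taken as synchronized young adults, 52 hours after the first larval stage (L1) was fed, and as embryos freed by hypochlorite from gravid adults of the same age, with 2 arrays in each of the 4 groups. Each array holds RNA pooled from many animals, and the labels do not say whether the 2 samples of a group were separate cultures, so p-values measure only the spread between these samples. The question, as the title of the series puts it, is what loss of seipin does to eggshell formation.

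In the worm, the oocyte is fertilized in the spermatheca and then builds its shell in layers, from the outside inwards. The outer vitelline layer lies over a layer of chitin, and below that follow a proteoglycan layer and a lipid-rich permeability barrier. Fertilization also starts egg activation, in which the oocyte finishes meiosis, releases its cortical granules and degrades maternal proteins; the mRNAs for these steps are made in the germline and stored in the oocyte.

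The probe for seip-1 read between 2970 and 3870 processed intensity units on the 4 wild-type arrays and between 5.19 and 6.97, not above background, on the 4 knockout arrays, as labelled. Between 65.7% and 75.5% of probes were well above background per array, and all 27 probes of the 10 genes were so on all 8 arrays. The 4 embryo arrays were on 1 slide and the 4 adult arrays on the other, so genotypes were compared within a slide, whereas stage and slide cannot be told apart. Levels below are log2 processed intensities minus the 75th percentile of the array, so that 0 is the level of a probe at that percentile. A difference is given ± the standard error of a linear model over all 8 arrays, with 2 arrays per group, and its p is that of limma's moderated test after Benjamini-Hochberg adjustment over all genes tested. Levels are not compared between genes, because each probe has its own response.

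In embryos, 9 of the 10 genes were lower in the knockout, by 2.38-fold for egg-6 to 6.16-fold for egg-3. The kinase gene mbk-2 did not pass the test. Of all 15397 genes tested in embryos 40.3% were lower, so a fall was common. Both knockout arrays were below both wild-type arrays for these 9 genes, as for 45.6% of all genes tested, and 44.6% of genes were higher. The median difference was -1.97 over the 10 genes against 0.15 over all genes tested. In adults none of the 10 passed. In bulk samples, fewer cells of a type and less RNA per cell cannot be told apart.

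EGG-1 and EGG-2 are related membrane proteins of the oocyte surface with LDL-receptor repeats, needed for sperm entry. The level of egg-1 (locus B0244.8) was -1.10 and -0.38 on the wild-type embryo arrays, -2.50 and -2.39 on the knockout embryo arrays, 2.84 and 3.16 in wild-type adults and 3.24 and 2.76 in knockout adults. The level of egg-2 (R01H2.3) was 0.07 and 0.62 in wild-type embryos, -1.71 and -1.61 in knockout embryos, 2.85 and 3.15 in wild-type adults and 3.27 and 2.69 in knockout adults. Both genes were thus high and overlapping on the 4 adult arrays, lower in wild-type embryos and lowest in knockout embryos, with no overlap between the embryo groups. The embryo difference was -1.70 ± 0.29 for egg-1 (adjusted p = 0.00135, 3.26-fold) and -2.0 ± 0.27 for egg-2 (adjusted p = 0.000496, 4.01-fold). All 6 probes of egg-1 were called lower, at -2.11 to -1.70. On the knockout embryo arrays the ratio of egg-1 to egg-2 was 0.30 and 0.31 (log2) above its wild-type mean, from which the wild-type embryo arrays lay 0.08 on either side. The ratio uses the brightest egg-1 probe, at -1.70, whereas the other egg-1 probes were at -2.11 to -1.94, against -2.0 for egg-2. That ratio was not tested, and how far a probe of one gene binds the RNA of the other was not measured.

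EGG-3, EGG-4 and EGG-5 are phosphatase-like proteins without catalytic activity that hold the kinase MBK-2 at the oocyte cortex, with CHS-1 tied to EGG-3, and EGG-4 and EGG-5 keep MBK-2 inactive until meiosis proceeds. The level of egg-3 (F44F4.2) was 2.59 and 2.87 in wild-type embryos, -0.06 and 0.28 in knockout embryos, 2.09 and 2.38 in wild-type adults and 2.47 and 1.99 in knockout adults. It was the member with the largest embryo difference, -2.62 ± 0.23 (adjusted p = 9.12e-05, 6.16-fold, 95% interval -3.18 to -2.06). Between wild-type embryos and wild-type adults the difference of egg-3 did not pass the test, at 0.50 ± 0.23 (adjusted p = 0.0849).

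The level of egg-4 (T21E3.1) was 1.64 and 2.0 in wild-type embryos, -0.42 and -0.11 in knockout embryos, 2.70 and 3.01 in wild-type adults and 3.06 and 2.54 in knockout adults. That of egg-5 (R12E2.10) was 2.35 and 2.72 in wild-type embryos, 0.25 and 0.52 in knockout embryos, 3.24 and 3.54 in wild-type adults and 3.60 and 3.07 in knockout adults. For both genes the knockout embryo arrays lay below the wild-type embryo arrays, and the adult groups overlapped. The embryo difference was -2.08 ± 0.25 for egg-4 (adjusted p = 0.000278, 4.23-fold) and -2.15 ± 0.24 for egg-5 (adjusted p = 0.000231, 4.44-fold). The ratio of egg-4 to egg-5 moved by 0.04 and 0.09 on the knockout embryo arrays. Because the pair is nearly identical in sequence, the probes of one may also read the other, and the values are uncertain to that extent.

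The gene egg-6 (K07A12.2) encodes a leucine-rich repeat protein that is best known from the apical matrix of the excretory duct and epidermis. Its level was 2.39 and 2.71 in wild-type embryos, 1.20 and 1.39 in knockout embryos, 2.65 and 2.97 in wild-type adults and 2.95 and 2.39 in knockout adults. Of the 9 genes that fell in embryos, egg-6 had the smallest difference, -1.25 ± 0.24 (adjusted p = 0.00251, 2.38-fold, 95% interval -1.83 to -0.67). The ratio of egg-3 to egg-6 was at -1.45 and -1.30 (log2) on the knockout embryo arrays from its wild-type mean, from which the wild-type embryo arrays lay 0.01; this difference between the 2 genes was not tested.

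CHS-1 is the chitin synthase of the eggshell, and GNA-2 is a glucosamine 6-phosphate N-acetyltransferase that makes the sugar precursor for it. The level of chs-1 (T25G3.2) was 0.04 and 0.43 in wild-type embryos, -1.50 and -1.29 in knockout embryos, 3.43 and 3.75 in wild-type adults and 3.96 and 3.32 in knockout adults. The level of gna-2 (T23G11.2) was 3.38 and 3.73 in wild-type embryos, 0.82 and 1.08 in knockout embryos, 2.76 and 3.08 in wild-type adults and 3.20 and 2.59 in knockout adults. Both fell in knockout embryos without overlap, by -1.63 ± 0.26 for chs-1 (adjusted p = 0.00117, 3.09-fold) and -2.61 ± 0.26 for gna-2 (adjusted p = 0.000138, 6.09-fold). Between wild-type stages chs-1 was 10.3-fold lower in wild-type embryos than in wild-type adults (-3.36 ± 0.26, adjusted p = 3.08e-05), whereas gna-2 was at 0.64 ± 0.26 (adjusted p = 0.0546).

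CBD-1 is a protein with chitin-binding domains that joins the vitelline layer to the chitin layer. The level of cbd-1 (H02I12.1) was 2.67 and 3.31 in wild-type embryos, 0.91 and 1.22 in knockout embryos, 4.89 and 5.16 in wild-type adults and 5.30 and 4.95 in knockout adults. The knockout embryo arrays lay below both wild-type embryo arrays, with a difference of -1.93 ± 0.26 (adjusted p = 0.000514, 3.80-fold), and the adult groups overlapped.

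MBK-2 is a DYRK-family kinase that, once released from the EGG proteins, marks oocyte proteins such as OMA-1 and MEI-1 for degradation. The brightest probe of mbk-2 (F49E11.1) had a processed intensity of 20350 and 21900 in wild-type embryos, 34200 and 32280 in knockout embryos, 14020 and 14750 in wild-type adults and 15180 and 13490 in knockout adults. After scaling its level was 3.88 and 3.90 in wild-type embryos, 3.92 and 3.97 in knockout embryos, 2.39 and 2.68 in wild-type adults and 2.73 and 2.30 in knockout adults. Changes of mbk-2 within the 95% interval of the embryo comparison, -0.40 to 0.51, were not told apart from none. The embryo difference was 0.06 ± 0.19 (adjusted p = 0.792). Its direction depended on how arrays were scaled: with the median of all probes subtracted it was -0.99 (adjusted p = 0.00489), with quantile normalization 0.81 (adjusted p = 0.00291), and with no scaling 0.65 (adjusted p = 0.00355). Relative to the mean of the other 9 genes on the same array, which no constant scaling of an array changes, mbk-2 was 2.14 and 1.96 higher on the knockout embryo arrays than its wild-type mean, from which the wild-type embryo arrays lay 0.21. On the knockout adult arrays the same ratio was at -0.06 and 0.04. The ratio was not tested. In embryos its reference is the 9 genes that fell (median -2.0), so it does not by itself show a rise of mbk-2.

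**Figure D1:**
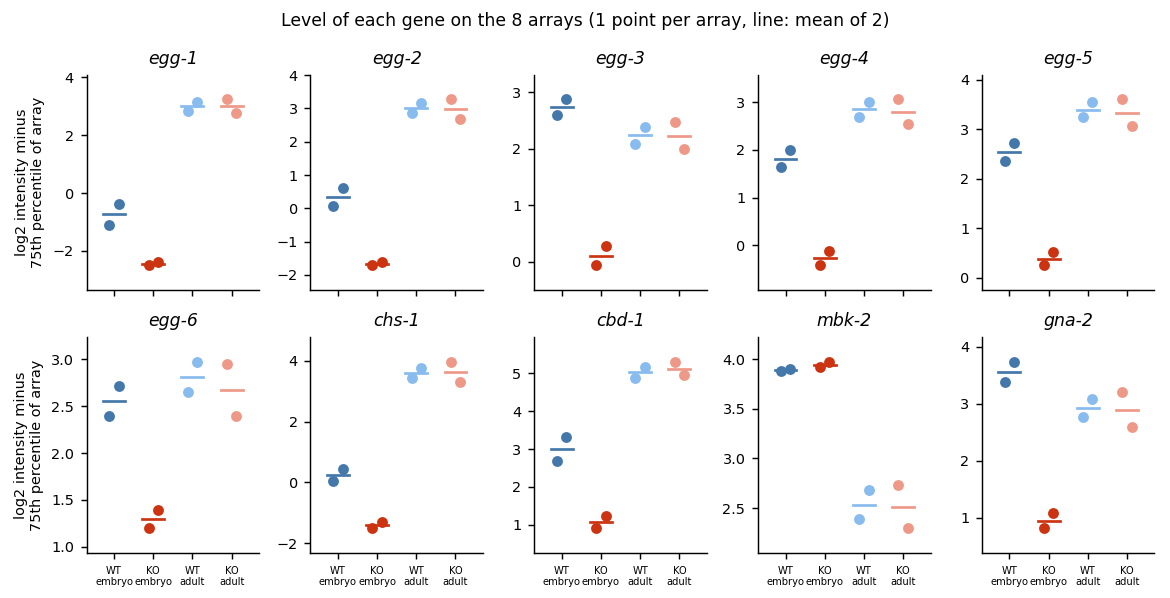
Level of each of the 10 genes on the 8 arrays, in log2 units relative to the 75th percentile of each array; each panel is 1 gene with its own vertical axis, points are arrays (WT, wild type; KO, knockout) and lines are means of 2. Knockout embryos lie below both wild-type embryo arrays for every gene except mbk-2, where the levels are 3.88 and 3.90 against 3.92 and 3.97, and the adult groups overlap in every panel.

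In adults no difference of the 10 genes was larger than the spread between arrays. Differences between knockout and wild-type adults lay between -0.14 ± 0.24 for egg-6 and 0.10 ± 0.26 for cbd-1, and for all 10 genes the knockout and wild-type arrays overlapped, against 28.1% of all genes for which they did not. By limma's test 0 of 10 passed (adjusted p = 1 for each), and 0 of 10 had an unadjusted p under 0.05. Of all 15008 genes tested in adults 0.0999% were called in either direction and 5.26% had an unadjusted p under 0.05. The widest interval among the 10 was that of egg-1, from -0.69 to 0.68. In adults the arrays of a group moved together across the genes: knockout adult array 1 was above array 2 for all 10 genes, by 0.36 to 0.64, and wild-type adult array 2 was above array 1 for all 10, by 0.28 to 0.33. The oocyte and germline markers did the same, with all 20 higher on knockout adult array 1 and all 20 higher on wild-type adult array 2.

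The knockout effect in embryos differed from that in adults for 9 of the 10 genes, tested as the difference of the differences, beside a background of 33.6% of 16832 genes lower. These differences ran from -2.62 ± 0.33 for egg-3 (adjusted p = 0.000745) to -1.11 ± 0.34 for egg-6 (adjusted p = 0.0233). For mbk-2 it was 0.08 ± 0.27 (adjusted p = 0.803). The call for egg-6 was lost when any of 4 arrays was left out (without wild-type embryo array 2, -0.95, adjusted p = 0.079; without knockout embryo array 1, -1.01, adjusted p = 0.072; without wild-type adult array 1, -0.95, adjusted p = 0.0779; without knockout adult array 1, -0.83, adjusted p = 0.0514). The call for egg-6 was also lost with quantile normalization (-0.51, adjusted p = 0.144) and with no scaling (-0.53, adjusted p = 0.119).

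**Figure D2:**
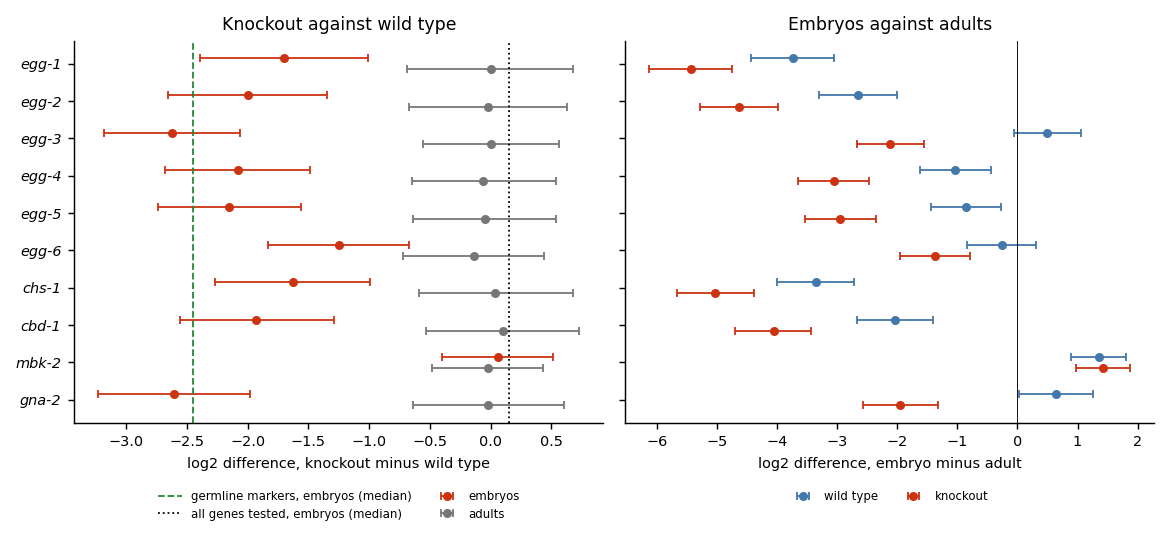
Log2 differences of the 10 genes with 95% intervals from the moderated model, for knockout against wild type in each stage (left) and embryos against adults in each genotype (right). In embryos 9 intervals lie below 0 and that of mbk-2 spans it, in adults all 10 span 0; the vertical lines on the left mark the median of all genes tested in embryos (0.15) and of the oocyte and germline markers (-2.45).

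The stage comparisons use the same arrays as the genotype comparisons and are given for each genotype on its own. Between wild-type stages, 6 of the 10 genes were lower in embryos (background 42.6% of 16120 genes), 1 was higher (41.4%), and egg-3, egg-6 and gna-2 did not pass. The largest stage difference was that of egg-1, at -3.74 ± 0.29 (adjusted p = 2.66e-05, 13.4-fold), followed by chs-1 and then egg-2 at -2.66 ± 0.27 (adjusted p = 0.000111). That first place rests on the brightest egg-1 probe: the other egg-1 probes were at -3.22 to -3.07, against -3.36 for chs-1. Smaller falls were seen for cbd-1 at -2.04 ± 0.26 (adjusted p = 0.000356), egg-4 at -1.04 ± 0.25 (adjusted p = 0.00675) and egg-5 at -0.85 ± 0.24 (adjusted p = 0.0148). The kinase gene mbk-2 was the one that was higher in embryos, by 1.35 ± 0.19 (adjusted p = 0.000531, 2.55-fold). The calls for egg-4 and egg-5 did not hold with median scaling, at -0.13 (adjusted p = 0.691) and 0.06 (adjusted p = 0.857). The call for egg-5 was also lost without wild-type embryo array 1 (-0.67, adjusted p = 0.0885) or without wild-type adult array 2 (-0.70, adjusted p = 0.0818).

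In the knockout 9 genes were lower in embryos than in adults (background 43.2% of 16547 genes) and mbk-2 was higher, by 1.43 ± 0.19 (adjusted p = 0.000422, background 38.3%). The falls ranged from -1.37 ± 0.24 for egg-6 (adjusted p = 0.00165, 2.59-fold) to -5.44 ± 0.29 for egg-1 (adjusted p = 5.37e-06, 43.4-fold). The egg-1 probes other than the brightest were at -5.16 to -5.10. For chs-1 the knockout embryo level was 32.7-fold below the knockout adult level (adjusted p = 5.41e-06). The 3 genes that did not pass between the wild-type stages all fell in the knockout: gna-2 with a difference of -1.95 ± 0.26, egg-3 of -2.12 ± 0.23 and egg-6 as above.

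With the scaling as reported, the order of the 4 groups was therefore of 4 kinds, with the adult groups not distinguished for any gene. For egg-1, egg-2, egg-4, egg-5, chs-1 and cbd-1 the adult levels were highest, wild-type embryos were lower and knockout embryos lowest, and both steps passed the test. For egg-3 and gna-2 the wild-type embryo mean was highest, but did not differ from the wild-type adult mean beyond the test, and knockout embryos were lowest. Over the alternatives this stage difference ran from -0.30 to 1.41 for egg-3 and from -0.16 to 1.55 for gna-2. The wild-type embryo mean was thus not highest under each. For egg-6 the wild-type embryo mean was below the wild-type adult mean without passing as reported, but was called lower with quantile normalization (-0.54, adjusted p = 0.0385) and with no scaling (-1.06, adjusted p = 0.00209). Over the alternatives the egg-6 difference ran from -1.06 to 0.65, so its direction was not kept under each. For mbk-2 both embryo groups were above both adult groups.

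Where a gene had several probes they gave the same direction in the embryo comparison, apart from mbk-2. All 17 probes of the other 9 genes were called lower in knockout embryos, at -2.62 to -1.23, beside 37.8% of 31782 probes tested. For egg-6 the 3 probes were at -1.41 to -1.23 in embryos but disagreed over stage: between wild-type embryos and adults they were at -0.26, -0.21 and 0.66, and the last was called higher (adjusted p = 0.0285). None of the 10 mbk-2 probes was called in embryos, at -0.59 to 0.15, while all 10 were called higher in wild-type embryos than in wild-type adults, as were 43.5% of all probes tested. The array assigns these probes to 3 transcripts of the locus, F49E11.1a, F49E11.1b and F49E11.1e. The stage difference was 1.99 to 2.27 for the 4 probes of transcript a, 1.94 for both probes of transcript e, and 1.35 to 1.82 for the 4 of transcript b. The difference between transcripts was not tested.

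**Figure D3:**
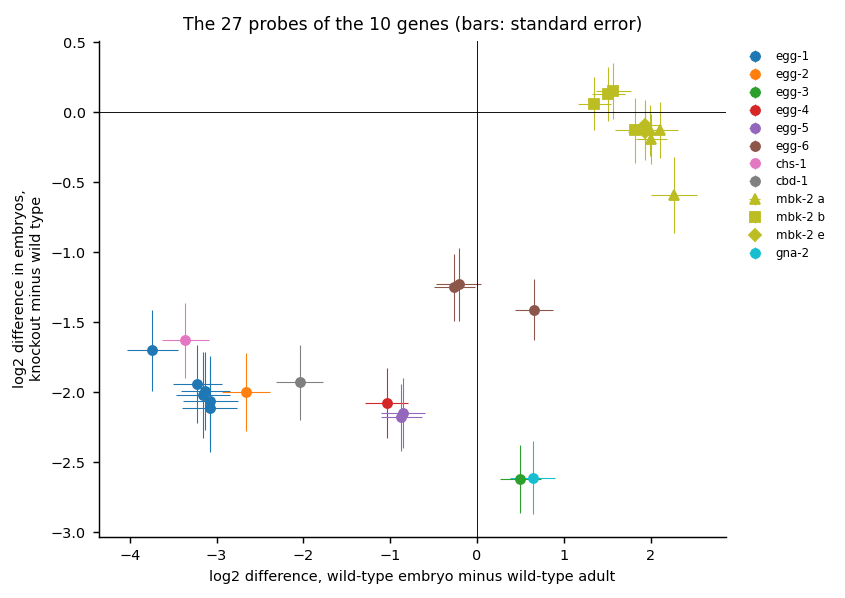
The 27 probes of the 10 genes, by log2 difference between wild-type embryos and wild-type adults (horizontal) and between knockout and wild-type embryos (vertical); bars are standard errors, colours are genes and marker shapes the mbk-2 transcripts a, b and e. The 2 axes share the wild-type embryo arrays; the mbk-2 probes sit at 1.35 to 2.27 on the horizontal axis and within -0.59 to 0.15 on the vertical axis, and the other 17 at -2.62 to -1.23 on the vertical axis.

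Other genes of chitin synthesis did not all move with chs-1 and gna-2 in embryos, where 40.3% of all genes tested were lower and 44.6% higher. Of the 7 measured enzymes from fructose 6-phosphate to chitin, these 2 members included, 5 were lower and 2 higher, with a median of -0.75; with no scaling 3 were lower. The gene pgm-3, named after the mutase of the same pathway, fell with them (-2.54 ± 0.21, adjusted p = 7.03e-05). The other chitin synthase gene, chs-2, known for the pharynx, rose by 3.23 ± 0.26 (adjusted p = 6.63e-05). Its processed intensity was 250.0 and 259 in wild-type embryos, 4420 and 2950 in knockout embryos and 109 to 211 on the adult arrays. The ratio of chs-1 to chs-2 in knockout embryos was at -5.19 and -4.52 (log2) from its wild-type mean. The other gene that rose, gfat-1, for an enzyme at the start of the pathway, is named after its value was seen. Its difference was 0.88 ± 0.18 (adjusted p = 0.00335) and was not called with median scaling (-0.17).

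Genes for the proteins that MBK-2 acts on were measured too. The shares of all genes tested in embryos, beside each count here, are 40.3% lower and 44.6% higher. Of the 14 measured genes for its substrates and for the oocyte-to-embryo switch, 13 were lower and 0 higher in knockout embryos, with a median of -1.96. Among them were zif-1, a ubiquitin ligase adaptor for germline proteins (-2.63 ± 0.19), oma-1, an oocyte maturation protein (-2.45 ± 0.19), and mex-5 and mex-6, for related RNA-binding proteins of embryo polarity (-2.39 ± 0.20 and -2.56 ± 0.22). Of the 13 tested genes for the inner eggshell layers 8 were lower and 3 higher, with a median of -1.34; with no scaling 7 were lower and 5 higher. The permeability barrier genes dgtr-1 and perm-1 were at -2.17 ± 0.28 and -1.90 ± 0.25, while pod-2, an acetyl-CoA carboxylase (1.62 ± 0.16), and sqv-4, a UDP-glucose dehydrogenase (1.98 ± 0.21), were higher. Among 7 genes for cortical granules and the oocyte surface 2 were higher and 2 lower, and the median turned from 0.09 to -0.96 with median scaling. All 13 translational regulators of oocytes were lower, with a median of -2.45. Several of these 13 genes are also among the oocyte and germline markers below, and oma-1 is in the MBK-2 list too. These lists are therefore not separate observations. Of 6 tested genes of the sperm side of fertilization 3 were higher and 3 lower, and with no scaling 3 were higher and 1 lower. In adults 0 of the other tested genes of all lists and marker sets were called by limma, and 2 of them had an unadjusted p under 0.05.

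Markers of cell types moved in both directions in knockout embryos, beside 40.3% of all genes tested that were lower and 44.6% that were higher. All 20 oocyte and germline markers were lower in knockout embryos, with a median of -2.45, and their mean level was 2.66 and 2.98 in wild-type embryos against 0.37 and 0.62 in knockout embryos. Of 9 early zygotic markers 8 were lower, with a mean level of 0.63 and 0.67 against -2.18 and -1.83. All 7 muscle markers were higher (mean level 0.96 and 0.98 against 3.87 and 3.48), as were all 7 intestine markers (-1.53 and -1.50 against 0.94 and 0.70), 5 of 7 neuron markers (-0.18 and -0.14 against 1.79 and 1.56) and 4 of 6 epidermis markers (1.14 and 1.21 against 2.68 and 2.72). Of 8 tested sperm markers 3 were higher and 3 lower. Some of these counts moved with the scaling. With median scaling 6 of 7 muscle and 6 of 7 intestine markers were higher, and of 6 epidermis markers 3 were higher and 2 lower. The sperm markers then gave 0 higher and 5 lower, against 3 higher and 0 lower with no scaling. The markers of these types were above background in knockout embryos except among the sperm markers, where spe-11, spe-38 and spe-42 were not; the other 2 neuron markers were lower, and were not called with quantile normalization or with no scaling. The part of the makeup of the embryo samples in the falls of the 9 genes was not tested.

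**Figure D4:**
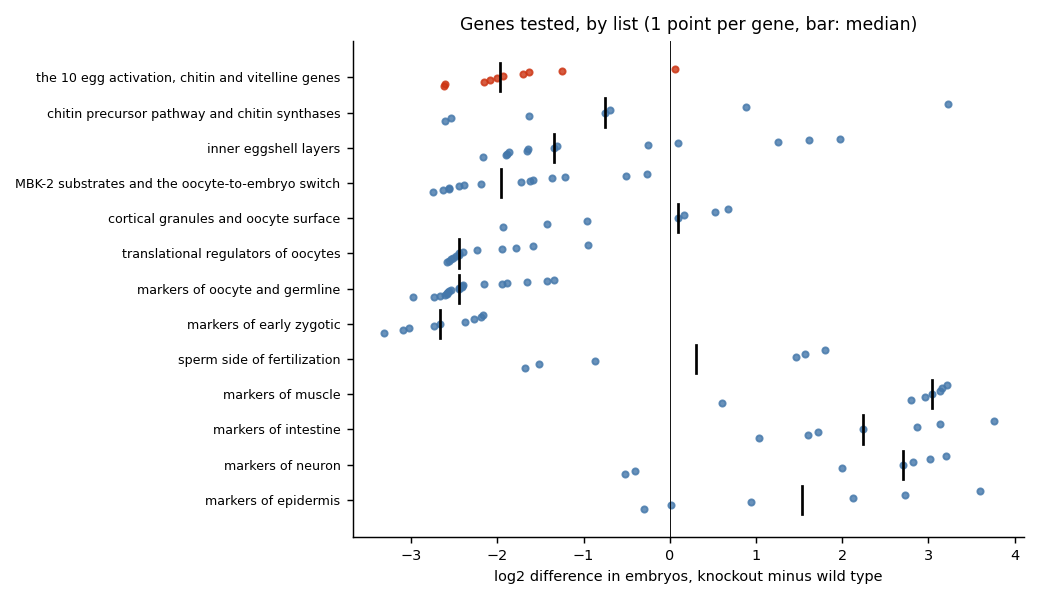
Log2 difference between knockout and wild-type embryos for each tested gene of the 10 described here and of 12 other gene lists; points are genes and bars are list medians. The 10 genes have a median of -1.97, the oocyte and germline markers -2.45 and the muscle markers 3.04.

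Set against the oocyte and germline markers on the same arrays, the members differed in direction. The mean of the 9 genes other than mbk-2 minus the mean of the 20 markers was 0.33 and 0.31 higher on the knockout embryo arrays than its wild-type mean, from which the wild-type arrays lay 0.06; this ratio was not tested. Against the marker mean egg-3 went the other way, from -0.07 and -0.11 in wild-type embryos to -0.44 and -0.34 in knockout embryos, as did gna-2, from 0.73 and 0.75 to 0.45 and 0.46. For egg-3 and gna-2, 3 of the 20 markers fell further, for egg-2, egg-4 and egg-5 15 did, for cbd-1 16, for egg-1 17, for chs-1 18, and for egg-6 and mbk-2 all 20. The markers include cpg-1 and cpg-2, which are eggshell genes themselves.

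The genes with the profile most like the mean of the 10, over the 8 arrays and with each profile centred on its own mean, were T08D2.5, R06C7.2, fbf-1, B0001.2 and dhs-12, with a root mean square distance of 0.0952 to 0.120 (log2) among 16816 genes compared. Of these fbf-1, which encodes an RNA-binding protein of the germline, was at -2.02 in embryos and -0.03 in adults. Such values follow from the choice by profile on the same arrays and are no separate evidence. Among the 10 genes themselves egg-4 and egg-5 lay closest to that mean, at 0.107 and 0.144, while egg-1 at 1.28 and mbk-2 at 1.83 lay farthest.

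The embryo differences moved with the choice of scaling. The median over all genes tested was 0.15 as reported, -0.90 with median scaling, 0.02 with quantile normalization and 0.75 with no scaling. The 9 falls were called under all of these: the smallest was egg-6, at -2.30 with median scaling, -0.66 with quantile normalization and -0.65 with no scaling, and egg-3 ran from -3.67 to -2.02.

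**Figure D5:**
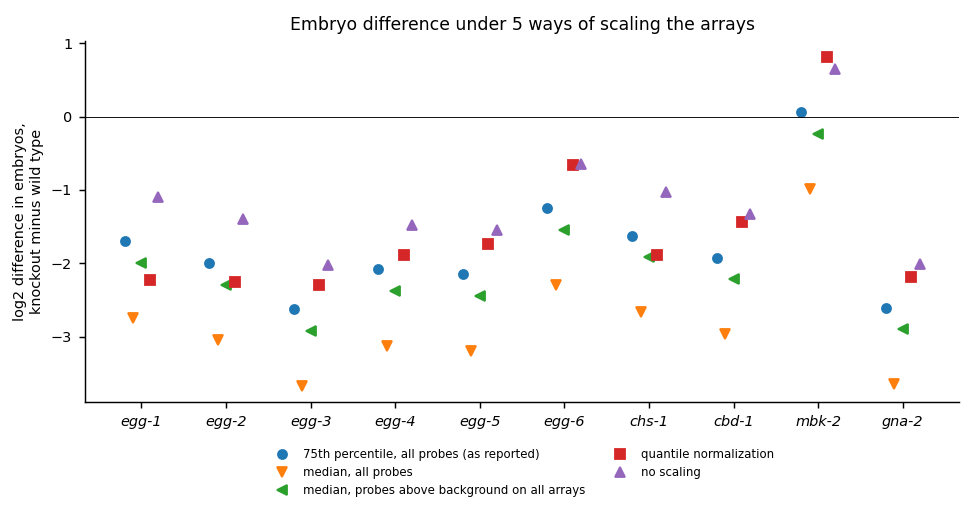
Log2 difference between knockout and wild-type embryos for the 10 genes under 5 ways of scaling the arrays, each symbol 1 way. For 9 genes all symbols are below 0, and for mbk-2 they run from -0.99 to 0.81.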

How the data were processed

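The 8 RNA samples were each run on an Agilent array in 1 colour (Cy3). Per the submitters' processing notes, the scans were read with Agilent Feature Extraction 10.7.1.1; per the file headers, the deposited processed intensities had background subtracted within an array and were not scaled between arrays. The deposited value table of the series holds log2 values: taking from the log2 intensity first the array's 75th percentile and then the wild-type mean of the stage gave all its values within 0.01, though no label states these steps. Positions are not given, since the array design and the gene table name different genome builds.

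Spots of a probe were averaged on the log2 scale after control spots and 4 to 12 outlier spots per array were left out (0 saturated), and the array's 75th percentile was subtracted. Of 43603 probes 31500 were named by sequence name and 3674 by accession; 8429 were unnamed. The brightest measured probe stood for a gene. All 8 arrays entered 1 model with a mean per group (limma 3.58.1, R 4.3.3; two-sided, with 4 residual degrees of freedom and 2.39 from the prior), with a Benjamini-Hochberg adjusted p under 0.05 as the threshold. Tests were limited to genes whose probe, on both arrays of 1 compared group or more, was well above background. The procedure was also run on simulated data in which a small part of the genes changed and no array was shifted in scale. In embryos most genes tested were called, so that run does not vouch for the embryo calls. Arrays give no counts, so precision is limited by their number.

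Alternatives were the background correction (normexp with offset 50, run on the median signal, since the mean signal it was planned on is not used here), the scaling, the filter on dim probes, the rule for several probes, the prior, array weights, the replicate number as a block, the value table, and leaving out each array. The 10 genes and all lists were chosen with earlier results of these data known. The text names all 10 with every probe, genes among the first 4 of a list by embryo adjusted p or where a result turns on them, the 5 nearest profiles, and seip-1. Of the list symbols uap-1, mat-2, syn-4, msp-10 and ssp-9 matched no gene here. Plots were made in Python 3.11.15 with matplotlib 3.10.9.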

Additional observations from a re-analysis of the deposited data

Results flagged for a closer look

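For 9 of the 10 genes the effect of the knockout in embryos differed from that in adults by the test of the difference itself, where 33.6% of all genes tested were lower. The embryo effect minus the adult effect (log2) was -2.62 for egg-3, -2.59 for gna-2, -2.10 for egg-5, -2.03 for cbd-1, -2.02 for egg-4, -1.98 for egg-2, -1.70 for egg-1, -1.67 for chs-1 and -1.11 for egg-6. The call for egg-6 was lost under 7 alternatives, among them the replicate block (adjusted p = 0.0546) and 4 fits without 1 array. Both knockout embryo arrays were below both wild-type embryo arrays for each of these genes, as for 45.6% of all genes tested, and the adult arrays overlapped. No group of arrays was large enough to look for a single array far from the others.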

How the results depend on the processing

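The 9 embryo falls kept their direction and their call under all 23 alternatives, with adjusted p at most 0.0198, and the 10 adult differences stayed uncalled under all 23. The count of members lower in embryos was 9, or 10 with median scaling, where mbk-2 was added. For the difference between stages it was 8 to 10, and between wild-type stages 4 (median scaling) to 7 (quantile normalization or no scaling, where egg-6 was added). Counts of genes called higher moved too. With quantile normalization and with no scaling, mbk-2 made that count 1 in embryos and 1 for the difference between stages (0.84, adjusted p = 0.0145, and 0.66, adjusted p = 0.0182). With median scaling mbk-2 turned to -0.99 in embryos and to -1.0 for the difference between stages (adjusted p = 0.0253). A median taken over the 24206 probes above background on all arrays, chosen after seeing the data, gave -0.24 for mbk-2 in embryos, not called. Between wild-type stages the count higher in embryos rose from 1 to 2 with normexp, with a filter to probes above background on each of the 8 arrays, with the trended and robust prior and with that added median, where gna-2 joined mbk-2. It rose to 3 with median scaling, with only the 4 arrays compared and with array weights, where egg-3 joined too. Leaving out 1 array gave 1 to 2. In that comparison egg-5 turned to 0.06 with median scaling. Of all 16120 genes tested there, 6672 were higher and 6867 lower as reported. With median scaling these were 8947 and 5330, with quantile normalization 7077 and 6291, and with no scaling 4082 and 8900. With only the 4 arrays compared they were 6847 and 7004, and with array weights 7080 and 7132. For the difference between stages, 5656 of 16832 genes were lower as reported, 8569 with median scaling and 3758 with no scaling. Causes were not tested.

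Samples with the same replicate number did not deviate together: the correlation of deviations over genes was 0.0172 in embryos and -0.659 in adults, and the labels give no pairing. With the replicate block the count of members lower in embryos was 9 and in adults 0, and the egg-6 difference between stages was -1.11 with adjusted p = 0.0546; the other member calls of the genotype comparisons did not change. With the adult numbers crossed, added after seeing the data, 9 members were lower in embryos, 0 were called in adults and 9 differed between stages. Over all genes in adults, 10 were higher and 5 lower as reported, 22 and 30 with normexp, 15 and 59 without knockout adult array 1, 8 and 15 without knockout adult array 2, 0 and 2 without either wild-type adult array, 0 and 2 with the replicate block, and 0 and 1 with only the 4 adult arrays. Over all genes in embryos 6863 were higher and 6205 lower as reported, 4978 and 8324 with median scaling and 8100 and 4371 with no scaling. With 2 arrays per group, the 95% intervals of the adult differences reached -0.72 for egg-6 and 0.73 for cbd-1. Changes within these intervals were not told apart from none. The intervals are not the limit of the adjusted test, so larger adult changes could also have gone uncalled.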

Other observations

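Within each group the arrays differed in the same direction across the 10 genes. Array 2 was higher than array 1 for all 10 genes in wild-type embryos (median 0.36, log2), in knockout embryos (0.24) and in wild-type adults (0.31), and lower for all 10 in knockout adults (-0.53). The oocyte and germline markers gave 19, 20, 20 and 0 of 20 higher on array 2 in these groups, while of all genes 51.3%, 52.2%, 54.9% and 45.3% were higher. Among the inner eggshell genes, perm-2 and perm-4 were not well above background on either knockout embryo array, and perm-4 was not on wild-type embryo array 1.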
